A study of Mus musculus with 6 samples.

Results

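The LIN28, IGF2BP and HMGA genes are 7 genes of mouse oncofetal families, active in embryonic and fetal tissue, low in most adult tissue and often switched on again in tumours. They are Lin28a, Lin28b, Igf2bp1, Igf2bp2, Igf2bp3, Hmga1 and Hmga2. They were taken by symbol from a table of 55401 genes, each symbol matched 1 row, and all 7 had enough counts to be tested. Messenger RNA had been sequenced in 6 mouse libraries with a stranded kit for polyadenylated RNA. The SSC libraries (n = 3) hold spermatogonial stem cells, which sustain sperm production, from the testes of males aged 6 days. These cells were kept on STO feeders, a mouse fibroblast line stopped from dividing, in 10% serum, with bFGF and LIF each at 10 ng/mL and GDNF and EGF each at 20 ng/mL. The iNSC libraries (n = 3) hold the neural stem cell-like cells made from SSCs by transdifferentiation for 6 days. For these, cells were plated on laminin and received 1 µM retinoic acid for 24 h. The medium was then changed to one containing 10 µM SB431542 (which blocks TGF-beta type I receptors), 20 ng/mL bFGF, the supplements B27 and N2, and 1% serum. No genetic change is named for either group, and the sources used here give no strain. The study concerns the RNA m6A reader YTHDF1 in this change of fate, and the IGF2BP proteins are readers of the same mark.

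Libraries held 18058551 to 20156067 counts. The cell type label names the opposite group in all 6 samples, so groups follow the titles. Germ cell markers went with the titles: all 10 fell in iNSCs, Dazl being the highest in SSCs and Etv5 in iNSCs. SSCs replicate 3 stood apart. Its summed level of 16 fibroblast and feeder markers, led by Sparc in both groups, was 195 FPKM against 1190 and 1031 FPKM in SSCs replicates 1 and 2. Its summed level of 6 smooth muscle markers, led by Acta2, was 40.2 FPKM against 701 and 597 FPKM. FPKM is the count scaled to exon length and to the library's total count. Among 10 neural stem cell markers, Nes and Prom1 rose and 5 fell. Sox1, Hes5 and Nr2e1 had 0 counts in every iNSC library and Sox2 had 3 counts over the group, so these defining markers did not go with the name iNSC. In bulk libraries such as these, fewer cells of a type and less RNA per cell cannot be told apart. Nor can the effects of fate, medium and feeders, since they changed together.

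LIN28A and LIN28B are RNA-binding proteins that block the maturation of let-7 microRNAs. They bind the loop of the let-7 precursor, where a GGAG stretch is part of the contact. LIN28A recruits the enzymes TUT4 and TUT7, whose uridine tail marks the precursor for decay by DIS3L2. Mature let-7 in turn represses messengers that carry its sites, among them Lin28a, Lin28b, Igf2bp1 and Hmga2. IGF2BP proteins stabilize and localize messengers such as Igf2, H19, Myc and Actb. HMGA proteins bind AT-rich DNA through AT-hooks and open chromatin. In the mouse testis LIN28A marks undifferentiated spermatogonia, and in the fetal mouse brain IGF2BP1 and HMGA2 support neural stem cells.

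The sequences through which let-7 and miR-125 meet these genes are shown because they link the 3 families. RefSeq (GRCm38.p6) gives 9 mature let-7 family microRNAs with the seed GAGGUAG and 2 mature miR-125 with the seed CCCUGAG. Capitals mark the seed, bases 2 to 8.
let-7a-5p: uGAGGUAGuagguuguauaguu
miR-125a-5p: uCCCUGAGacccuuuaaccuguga
miR-125b-5p: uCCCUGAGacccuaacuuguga
The let-7g hairpin, at chr9:106178840-106178927 on the plus strand, is an example of a precursor with the GGAG stretch, which stands in capitals.
Mirlet7g: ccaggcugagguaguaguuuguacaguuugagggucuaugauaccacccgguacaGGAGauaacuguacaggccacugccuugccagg
GGAG lay between the mature arms in 9 of 12 let-7 family hairpins (75.0%) and in 44 of 631 other mouse hairpins (6.97%). Mirlet7b, Mirlet7c-2 and Mir98 were the let-7 family hairpins without it.

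All 7 members carried at least 1 let-7 seed match, CTACCTC, in the 3′ UTR of GENCODE M21 (GRCm38), against 8.95% of 20985 genes with a 3′ UTR. Only the transcript strand was read, and for each gene only the protein-coding transcript with the longest 3′ UTR. Shorter 3′ UTRs, and which of them these cells use, were not examined. The longer match CTACCTCA, which contains the first, was present in 6 members, all but Hmga1, against 3.02% of genes. The members held 17 of the 7-base matches in all. Lin28b, Igf2bp1 and Hmga2 had 4 each, a number reached by 12 of the 20985 genes. Several members are textbook let-7 targets, so these matches are known features of them. A 30-base stretch with the match in capitals is shown for each, 5′ to 3′ on the transcript strand, at the site nearest the stop codon.
Lin28a (chr4:134005182-134005211, minus): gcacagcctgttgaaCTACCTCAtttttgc
Lin28b (chr10:45381015-45381044, minus): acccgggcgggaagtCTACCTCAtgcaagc
Igf2bp1 (chr11:95961771-95961800, minus): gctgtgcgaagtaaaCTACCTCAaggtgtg
Igf2bp2 (chr16:22059466-22059495, minus): acacacaaataaaagCTACCTCAggtgttt
Igf2bp3 (chr6:49086780-49086809, minus): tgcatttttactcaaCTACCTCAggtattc
Hmga1 (chr17:27563277-27563306, plus): tcctctgttcacaaaCTACCTCtggacggt
Hmga2 (chr10:120364217-120364246, minus): gccgacattcaatttCTACCTCAgcatcag
Long 3′ UTRs hold more matches by length alone. Of 3′ UTRs within 25% of the length of that of Igf2bp1 (6337 bases), 32.0% held a let-7 match and 0.133% held at least 4. For Lin28b (4445 bases) these shares were 23.4% and 0.18%, and for Hmga2 (3014 bases) 15.9% and 0.105%. Lin28a (2775 bases) had 2 matches, and 1.93% of 3′ UTRs of like length held at least as many. The single matches of Igf2bp2, Igf2bp3 and Hmga1 were of a number found in 11.5%, 12.9% and 7.98% of 3′ UTRs of like length.
The miR-125 seed match CTCAGGG, found in 13.0% of all 3′ UTRs, was present once in each of 3 members, Lin28a, Lin28b and Igf2bp3. In Lin28a and Lin28b it extended to the 8 bases CTCAGGGA.
Lin28a, miR-125 (chr4:134005294-134005323, minus): aggtacatgagcaatCTCAGGGAtaataag
Lin28b, miR-125 (chr10:45378791-45378820, minus): ggacaaagaactttgCTCAGGGAacatacc

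**Figure D1:**
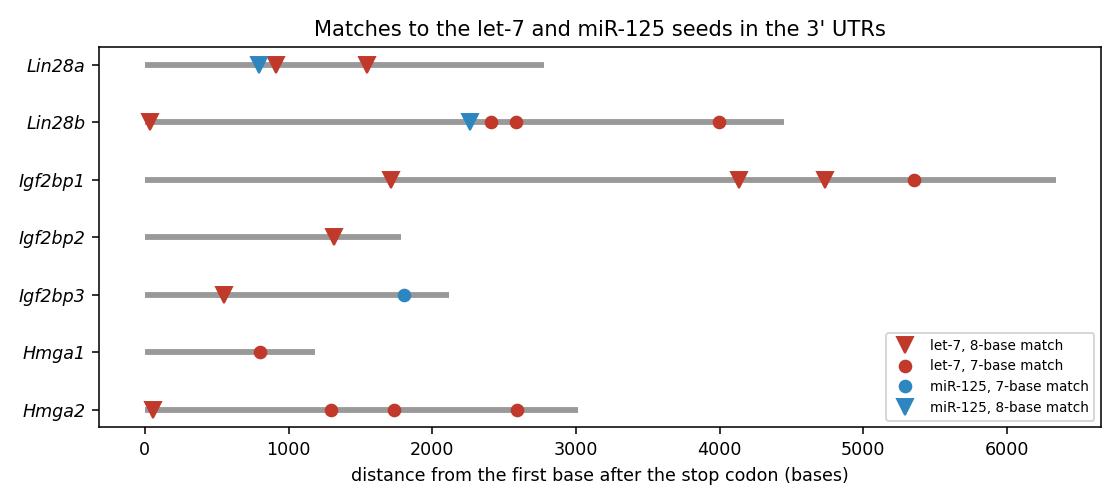
Positions of let-7 and miR-125 seed matches along the longest 3′ UTR of each member, drawn to scale in bases from the stop codon. Lin28b, Igf2bp1 and Hmga2 carry 4 let-7 matches each, Lin28a carries 2, and Igf2bp2, Igf2bp3 and Hmga1 carry 1 each.

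Of the 7 members, 3 fell in iNSCs (Lin28a, Lin28b and Igf2bp1), 1 rose (Hmga2) and 3 were not called (Igf2bp2, Igf2bp3 and Hmga1). A gene was called to rise or fall at a Benjamini-Hochberg adjusted p under 0.05 over all 17387 genes tested by edgeR's quasi-likelihood test, together with a log2 difference (iNSCs minus SSCs) of at least 1 in size. Over all tested genes 53.3% were called, 25.7% rising and 27.6% falling, and the 4 called members of 7 are a share near this background. Of the members, 6 had an adjusted p under 0.05 whatever the size, against 73.9% of all genes. Igf2bp2, Igf2bp3 and Hmga2, 3 of the 7 members, had such an adjusted p and were higher in iNSCs. Over all 17387 tested genes, 35.6% met both conditions. The FPKM ranges of the groups did not overlap for any of the 7, which held for 79.3% of all tested genes. Nothing in the labels states that replicates came from different cultures or animals, and the p-values therefore reflect only library-to-library spread, possibly technical.

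**Figure D2:**
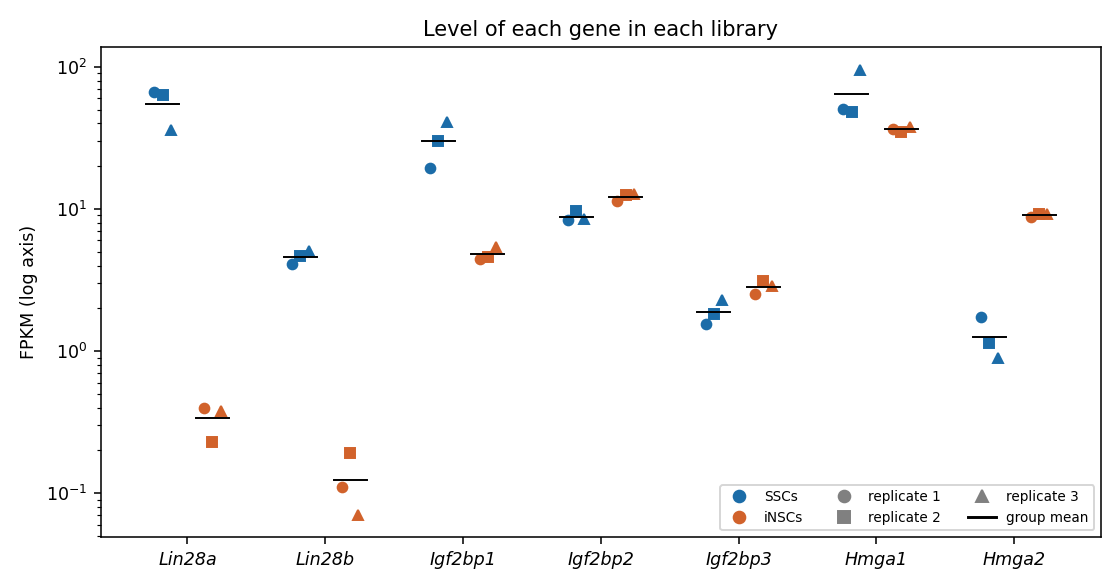
FPKM of each member in each of the 6 libraries (log axis), with 1 point per library and a black line at the mean of each group of 3. Lin28a, Lin28b and Igf2bp1 lie higher in every SSC library and Hmga2 in every iNSC library, while the values of Hmga1 in SSCs spread from 47.92 to 95.78 FPKM.

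Lin28a (ENSMUSG00000050966, chr4:134003330-134018841, minus strand, GRCm38) was at 66.21, 63.52 and 36.10 FPKM in SSCs replicates 1 to 3 and at 0.40, 0.23 and 0.38 FPKM in iNSCs replicates 1 to 3. Every SSC library was far above every iNSC library, and SSCs replicate 3 was the lowest of its group. The means were 55.3 ± 16.7 FPKM and 0.337 ± 0.0929 FPKM (SD, n = 3 each), a level 164-fold lower in iNSCs. The log2 difference was -7.08 (SE 0.32, adjusted p = 3.75e-06, edgeR), and -7.31 without SSCs replicate 3. The iNSC value rests on 79 counts over 3 libraries, against 12409 in SSCs.

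Lin28b (ENSMUSG00000063804, chr10:45376620-45486395, minus strand), which also blocks let-7, was at 4.08, 4.64 and 5.04 FPKM in SSCs and at 0.11, 0.19 and 0.07 FPKM in iNSCs. It was the lower paralog in every library, and its groups lay well apart. Its mean went from 4.59 ± 0.482 to 0.123 ± 0.0611 FPKM, a 37.2-fold lower level. The log2 difference was -4.99 (SE 0.33, adjusted p = 1.46e-05, edgeR), and -4.90 without SSCs replicate 3. On the scale of log2(FPKM + 1), where low levels are compressed by the added constant, it was -2.31. The iNSC level rests on 64 counts.

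The summed LIN28 level was 130-fold lower in iNSCs, at 0.460 ± 0.0458 FPKM against 59.9 ± 16.3 FPKM. Lin28a made up 91.7 ± 3.47% of the sum in SSCs and 72.5 ± 15.7% in iNSCs. The ratio of Lin28a to Lin28b was 16.2, 13.7 and 7.16 in SSCs and 3.64, 1.21 and 5.43 in iNSCs, all 3 iNSC values being below all 3 SSC values. In log2 the ratio differed by -2.10 between groups (exact permutation test, two-sided, p = 0.1, n = 3 each). That is the smallest p that 3 libraries against 3 allow, and the adjusted p over the 4 ratios tested is also 0.1.

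Igf2bp1 (ENSMUSG00000013415, chr11:95957163-96005940, minus strand), an RNA-binding protein named for its binding to Igf2 messenger, was at 19.52, 30.00 and 40.82 FPKM in SSCs. In iNSCs it was at 4.44, 4.60 and 5.43 FPKM. The SSC libraries differed among themselves by more than the iNSC libraries, and the lowest of them was still above every iNSC library. The mean went from 30.1 ± 10.7 to 4.82 ± 0.531 FPKM (6.24-fold lower), with a log2 difference of -2.40 (SE 0.29, adjusted p = 0.000225, edgeR) and of -2.09 without SSCs replicate 3.

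Igf2bp2 (ENSMUSG00000033581, chr16:22059009-22163299, minus strand), the paralog most widely kept in adult tissue, was at 8.38, 9.63 and 8.52 FPKM in SSCs and at 11.32, 12.60 and 12.71 FPKM in iNSCs. All iNSC libraries were above all SSC libraries, by a small step. The means were 8.84 ± 0.685 and 12.2 ± 0.773 FPKM. The log2 difference of 0.72 (SE 0.11, adjusted p = 0.000807, edgeR) passed the test but not the size of 1, and it was 0.46 with library totals in place of TMM scaling and 0.43 on the scale of log2(FPKM + 1).

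Igf2bp3 (ENSMUSG00000029814, chr6:49085223-49214957, minus strand), the paralog most often seen again in tumours, was at 1.56, 1.83 and 2.30 FPKM in SSCs and at 2.50, 3.11 and 2.89 FPKM in iNSCs. The highest SSC library and the lowest iNSC library were close to each other. The means were 1.90 ± 0.375 and 2.83 ± 0.309 FPKM, with a log2 difference of 0.82 (SE 0.20, adjusted p = 0.00748, edgeR), which did not reach the size of 1. Without SSCs replicate 3 the difference was 1.01 (adjusted p = 0.000573, edgeR) and Igf2bp3 was called, and on the scale of log2(FPKM + 1) it was 0.41. Malsu1, on the opposite strand, overlaps 1529 exonic bases of Igf2bp3 and had 832, 653 and 712 counts in SSCs and 435, 407 and 471 in iNSCs. Whether counting used the strand is not given, so the level of Igf2bp3 is uncertain to that extent.

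The summed IGF2BP level was 40.9 ± 11.1 FPKM in SSCs and 19.9 ± 1.44 FPKM in iNSCs. Igf2bp1 made up 72.6 ± 6.40% of it in SSCs and 24.3 ± 1.59% in iNSCs, whereas Igf2bp2 made up 22.7 ± 5.99% and 61.5 ± 0.912%. The leading paralog thus differed between groups, Igf2bp1 in every SSC library and Igf2bp2 in every iNSC library. Igf2bp3 made up 4.72 ± 0.498% in SSCs and 14.2 ± 0.922% in iNSCs. The ratio of Igf2bp2 to Igf2bp1 was 0.429, 0.321 and 0.209 in SSCs and 2.55, 2.74 and 2.34 in iNSCs, a log2 difference of 3.05 (exact permutation test, two-sided, p = 0.1, the smallest possible). For Igf2bp3 to Igf2bp1 the log2 difference was 3.17, with the same p.

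**Figure D3:**
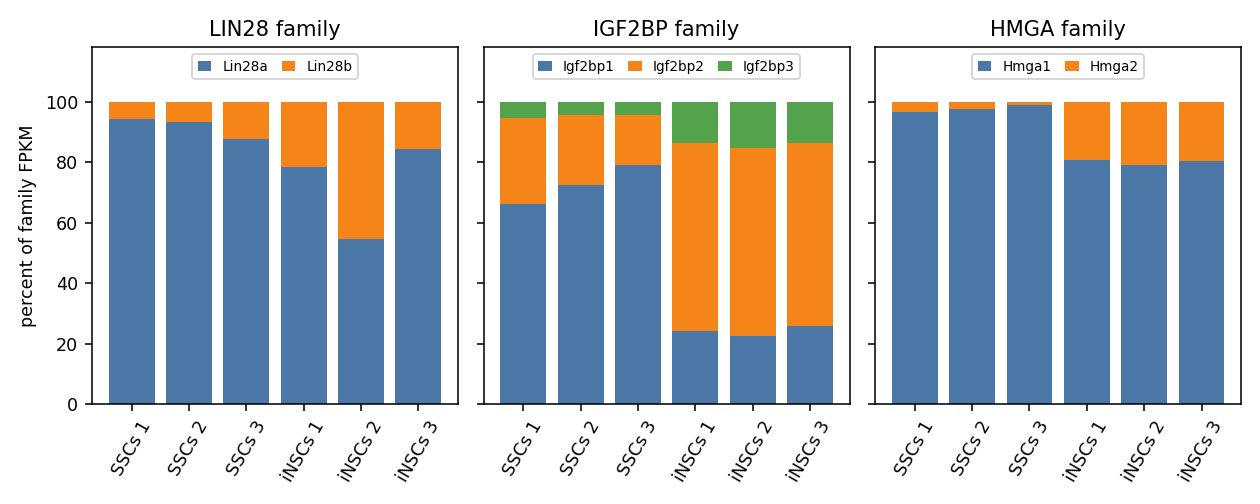
Share of each paralog in the summed FPKM of its family, as stacked bars in percent for each of the 6 libraries. Igf2bp1 is the largest part of the IGF2BP bar in SSCs and Igf2bp2 in iNSCs, and the Hmga2 part grows from 2.18% to 19.9% on average.

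Hmga1 (ENSMUSG00000046711, chr17:27556497-27563674, plus strand), the AT-hook protein common in dividing cells, was at 50.68, 47.92 and 95.78 FPKM in SSCs and at 36.87, 34.82 and 38.01 FPKM in iNSCs. SSCs replicate 3 stood far above the other libraries, which lay between 34.82 and 50.68 FPKM. The means were 64.8 ± 26.9 and 36.6 ± 1.62 FPKM. The log2 difference of -0.59 (SE 0.28, adjusted p = 0.0963, edgeR) missed both thresholds and was -0.16 without SSCs replicate 3.
Hmga1 is also uncertain because of the near-identical copy Hmga1b (chr11:120762794-120764419, plus strand). Of the 50-base stretches of Hmga1 exons, 55.0% occur in another gene, Hmga1b above all. Hmga1b was listed at 83.31, 77.00 and 114.40 FPKM in SSCs and at 83.39, 86.07 and 92.79 FPKM in iNSCs, and its groups overlapped (log2 difference 0.18, adjusted p = 0.391, edgeR). With the counts of both added, an alternative chosen after the values were seen, the difference was -0.14 (adjusted p = 0.595, edgeR).

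Hmga2 (ENSMUSG00000056758, chr10:120361275-120476469, minus strand), the fetal AT-hook protein, was the member that rose. It was at 1.74, 1.13 and 0.89 FPKM in SSCs and at 8.75, 9.16 and 9.27 FPKM in iNSCs. The iNSC libraries were nearly level with each other and all above the SSC libraries. The mean went from 1.25 ± 0.438 to 9.06 ± 0.274 FPKM, 7.23-fold higher, with a log2 difference of 3.12 (SE 0.22, adjusted p = 1.94e-05, edgeR) and of 2.93 without SSCs replicate 3. Of its 50-base stretches 2.73% occur in another gene. The antisense gene 1700006J14Rik had 77, 109 and 48 counts in SSCs and 3, 16 and 13 in iNSCs, opposite in direction to the 479 and 3589 counts of Hmga2 in the groups.

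Hmga2 made up 2.18 ± 1.20% of the summed FPKM of Hmga1 and Hmga2 in SSCs and 19.9 ± 0.855% in iNSCs. With Hmga1b in the sum these shares were 0.867% and 6.82%. The log2 ratio of Hmga2 to Hmga1 differed by 3.65 (exact permutation test, two-sided, p = 0.1, the smallest possible).

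**Figure D4:**
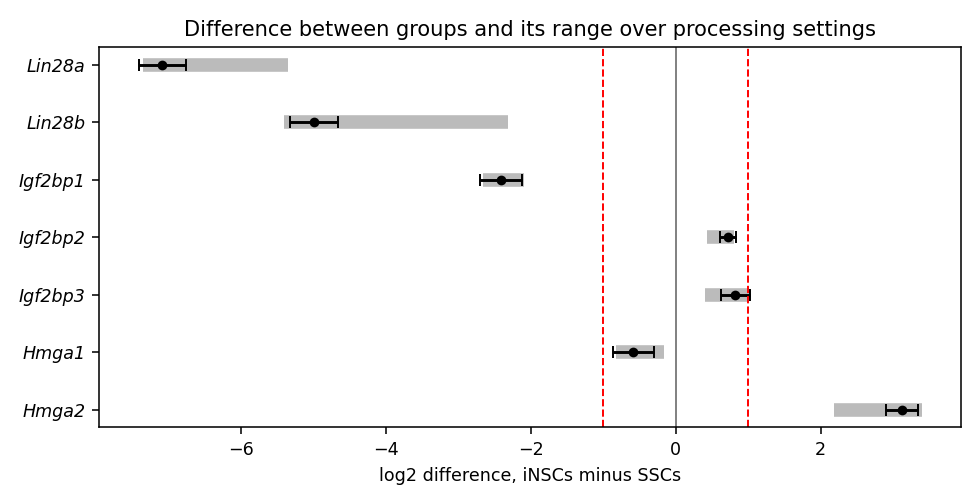
Log2 difference (iNSCs minus SSCs, edgeR) of each member, as a point with a bar of 1 SE, over a grey band that spans the values under the alternative processing settings; dashed lines mark the call size of 1. Lin28a, Lin28b and Igf2bp1 lie below -1 and Hmga2 above 1, while Igf2bp2, Igf2bp3 and Hmga1 lie between the lines.

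In order of FPKM, the mean levels in SSCs were Hmga1, Lin28a, Igf2bp1, Igf2bp2, Lin28b, Igf2bp3 and Hmga2. The ranges of Hmga1 and Lin28a overlapped, as did those of Lin28a and Igf2bp1 and those of Igf2bp3 and Hmga2. Lin28a was the highest member in SSCs replicates 1 and 2, whereas in SSCs replicate 3 it came after Hmga1 and Igf2bp1. In iNSCs the order was Hmga1, Igf2bp2, Hmga2, Igf2bp1, Igf2bp3, Lin28a and Lin28b in every library, and no neighbours overlapped. Lin28a thus went from the top 3 of the members to the place next to last, and Hmga2 from the lowest mean to the third.

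Several members shared the order of a marker sum over the 3 SSC libraries. With so few libraries unrelated genes can share an order, and the share of all tested genes doing so was not counted. Germ cell markers summed to 613, 662 and 726 FPKM in SSCs replicates 1 to 3 and to 29.2 to 30.9 FPKM in iNSCs. The list was split, by markers named after their values were seen. Dazl, Gfra1, Zbtb16, Sall4, Nanos2 and Etv5 increased from SSCs replicate 1 to 3. Ddx4, Dnd1 and Utf1 were instead lowest in replicate 3, and Pou5f1 was highest in replicate 1. The order of Utf1 and Dnd1 was also that of Lin28a and Hmga2. Igf2bp1, Lin28b and Igf2bp3 had the order of the germ cell sum over the SSC libraries. They were lowest in replicate 1 and highest in replicate 3, although Igf2bp3 was higher in iNSCs than in SSCs. The fibroblast and feeder sum, 1190, 1031 and 195 FPKM in SSCs, ran in the order of Hmga2 and Lin28a and against that of Igf2bp1, Lin28b and Igf2bp3. Hmga1 and Igf2bp2 followed neither order. It was 891 to 1036 FPKM in iNSCs, with 6 of its 16 markers rising and 2 falling. Simple epithelial markers summed to 158 to 260 FPKM in SSCs, led by Epcam, and to 3282 to 3949 FPKM in iNSCs, led by Krt8, with 9 of 10 rising. Of 8 Sertoli cell markers tested, 6 rose and 2 fell, the sums being 258 to 541 FPKM in SSCs, led by Dmrt1, and 715 to 908 FPKM in iNSCs, led by Clu. Macrophage and endothelial markers (2 of 9 rose, 3 fell) summed to 16.3 to 44.6 FPKM in SSCs, led by Lyz2, and 103 to 132 FPKM in iNSCs, led by Cd14. Neural stem cell markers summed to 41.6 to 48.1 FPKM, led by Msi1, and 129 to 136 FPKM, led by Nes. None of the 6 smooth muscle markers was called. The part of these cell types in the members' differences was not tested.

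**Figure D5:**
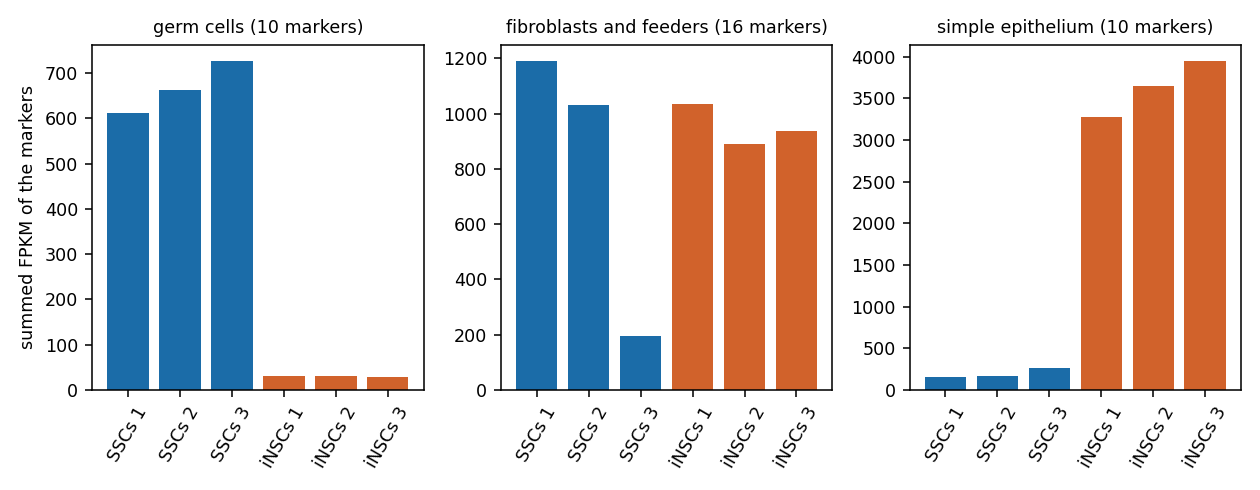
Summed FPKM of the germ cell, fibroblast and simple epithelial marker lists, as bars for each of the 6 libraries, each panel with its own axis from 0. The germ cell sum is higher in all SSC libraries, the epithelial sum in all iNSC libraries, and SSCs replicate 3 is low in the fibroblast sum.

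The genes that work with LIN28 on let-7 moved in both directions. Of 18 genes of let-7 biogenesis and LIN28 partners, 3 rose, 6 fell and 9 were not called. The median log2 difference was -0.46 against -0.05 over all tested genes. Over all tested genes 25.7% rose and 27.6% fell, which is the background for the counts of every list, marker lists included. Trim71, a ubiquitin ligase and RNA-binding protein that is itself a let-7 target, fell from 52.5 ± 11.9 to 0.597 ± 0.0851 FPKM (log2 -6.21, adjusted p = 3.01e-06, edgeR). Msi1, an RNA-binding protein that can bring LIN28 to pri-let-7, fell from 17.0 ± 1.05 to 2.84 ± 0.119 FPKM (log2 -2.32). Ago2, the slicing Argonaute that carries microRNAs, rose from 2.27 ± 0.760 to 10.2 ± 1.11 FPKM (log2 2.42). The precursor-processing genes Drosha (-1.93), Dicer1 (-1.15) and Tarbp2 (-1.68) fell in log2 difference, and Prkra rose by 2.05. Of the genes that act on the LIN28-bound precursor, Tut4 fell (-1.35), Dis3l2 rose (1.42), and Tut7 was not called at a log2 difference of 0.91. The genes in the last 2 sentences make up the other calls of this list and were named after their values were seen, with Tut7 for comparison.

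Of 30 let-7 target genes other than the members, 29 were tested, 6 rose and 7 fell, with a median log2 difference of -0.26. Ccnd1 (cyclin D1) rose from 13.8 ± 1.51 to 347 ± 3.33 FPKM (log2 4.91, adjusted p = 1.20e-06, edgeR), the opposite direction to Trim71 and to Arid3b, an ARID-family DNA-binding factor that fell from 16.4 ± 5.27 to 0.800 ± 0.141 FPKM (log2 -4.12).

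The rows of the let-7 and miR-125 hairpins held almost no counts, and the reason was not tested. Mature microRNAs carry no poly(A) tail and are not measured by these libraries. Of 17 rows for let-7 and miR-125 hairpins and hosts, 14 had no count in any library, and Mirlet7g had 1 count, in SSCs replicate 3. Mir100hg, which hosts let-7a-2 and miR-125b-1 hairpins, was at 0.77, 0.26 and 0.20 FPKM in SSCs and at 1.51, 1.46 and 1.43 FPKM in iNSCs. It rose (log2 2.12, SE 0.45, adjusted p = 0.00376, edgeR), but with limma on log2(FPKM + 1) its difference was 0.83 and it was not called. Mir99ahg, host of let-7c-1 and miR-125b-2, had a log2 difference of 0.65 and was not called. Without SSCs replicate 1, its difference was 1.60 and it was called (adjusted p = 0.0105, edgeR). Hosts found by position, a choice made after the values were seen, went different ways. The long noncoding RNA 6720427I07Rik, which spans let-7a-1, let-7f-1 and let-7d, fell (log2 -1.47, adjusted p = 0.0061, edgeR). Huwe1, host of let-7f-2 and miR-98, had a log2 difference of -0.97 and Wdr82, host of let-7g, 0.18, and neither was called. Gm28119, a noncoding RNA over miR-125b-1, rose (log2 3.57, adjusted p = 0.000251, edgeR) on 6 counts in SSCs and 66 in iNSCs. Lncppara, host of let-7b and let-7c-2, had a log2 difference of 1.58, Spaca6, host of let-7e and miR-125a, 0.74, and D630033A02Rik, host of let-7i, 0.77, all higher in iNSCs and not called. Levels of host transcripts do not measure the mature microRNA.

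Around the IGF2BP proteins, the IGF axis had 14 of 15 genes tested, of which 7 rose and 2 fell (median log2 1.31). Over all tested genes 25.7% rose and 27.6% fell. The count of this list that rose was 5 with library totals in place of TMM and 8 with the replicate block. The binding proteins Igfbp3 and Igfbp4 rose from 5.22 ± 1.37 to 56.3 ± 4.46 FPKM (log2 3.69) and from 6.42 ± 1.80 to 60.0 ± 18.8 FPKM (log2 3.48). Igf2, the growth factor whose messenger gave the family its name, fell from 1.10 ± 0.529 to 0.0700 ± 0.0300 FPKM (log2 -3.63, adjusted p = 0.000445, edgeR). The noncoding RNA H19, the other gene of this list that fell, had a log2 difference of -3.47. Among 16 partner and cargo genes of IGF2BP, 4 rose and 1, Matr3, a nuclear matrix protein, fell (log2 -1.26), with a median log2 of -0.33. The cell-surface receptor Cd44 rose from 3.81 ± 1.25 to 32.9 ± 2.12 FPKM (log2 3.37), the cold-shock protein Ybx3 by 1.88 in log2 and Myc from 7.38 ± 2.69 to 19.3 ± 0.865 FPKM (log2 1.63). Actb, a classic IGF2BP1 cargo, made up the fourth, at a log2 difference of 1.08. The count of partners that fell was 5 with library totals and 3 with upper-quartile scaling in place of TMM, 4 with either limma setting, 2 among genes of at least 1 FPKM in 3 libraries, and 3 without SSCs replicate 1.

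Of 16 other high mobility group genes, 15 were tested, 2 rose and 5 fell (median log2 -0.41), and Hmgb4 had no count. Hmgb2, a chromatin protein of proliferating cells and of germ cells, fell from 62.8 ± 7.29 to 17.0 ± 1.42 FPKM (log2 -1.63). Tox3 fell (log2 -3.69) and Hmg20b rose (log2 2.26). Without SSCs replicate 3, 3 genes of this list fell in place of 5.

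Among 18 other oncofetal genes 5 rose and 6 fell (median log2 -0.43). Sall4, a zinc-finger factor of undifferentiated spermatogonia, fell from 36.0 ± 2.44 to 0.377 ± 0.0451 FPKM (log2 -6.32) and Afp, the fetal serum protein, from 14.7 ± 2.41 to 0.227 ± 0.0379 FPKM (log2 -5.79). Cldn6, a tight junction protein of embryonic epithelia, rose from 1.09 ± 0.271 to 177 ± 8.53 FPKM (log2 7.59).

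Genes with profiles most like each member were taken from those of similar mean level, by the root mean square distance of centred log2 CPM over the 6 libraries. CPM is the count scaled to the library's total after TMM scaling, and not to exon length. For Lin28a the nearest were Pramef12 (0.280), Kif26a (0.404) and Sall4 (0.461), and for Lin28b they were Mapk10 (0.112), Topaz1 (0.169) and Dlx3 (0.224). For Igf2bp1 they included the GDNF receptor gene Ret (0.130) and Phc1 (0.131). For Hmga2 they were Pxdc1 (0.0191), Fzd8 (0.0871) and Mpp1 (0.116). Hmga1, whose profile turns on SSCs replicate 3, was nearest to Mkrn1 (0.0950), Ccnd2 (0.176) and Elovl5 (0.179). Igf2bp2 was nearest to Abhd2 (0.0516), Triobp (0.0536) and Sipa1l2 (0.0564), and Igf2bp3 to Gstcd (0.0775), Rufy3 (0.0876) and Zfp871 (0.0941).

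The number of let-7 matches did not order the members by direction. Of the 3 members with 4 matches, Lin28b and Igf2bp1 fell and Hmga2 rose. Lin28a, with 2 matches, had the largest fall of the 7. Over all 14876 tested genes with a 3′ UTR, 26.8% rose and 26.0% fell, and over the 1525 with at least 1 let-7 match 26.1% rose and 25.5% fell. Over the 27 with at least 3 matches, which include Lin28b, Igf2bp1 and Hmga2, 22.2% rose and 40.7% fell, with a median log2 difference of -0.45 against 0.02. Their 3′ UTRs are also longer, with a median of 4466 bases against 1119.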

How the data were processed

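The authors deposited 1 table with raw read counts and FPKM of 55401 genes in 6 libraries. FPKM recomputed from these deposited counts matched within 0.005. Per the submitters' processing notes, HISAT2, DESeq2 and mm9 were used. However, 54784 of the gene coordinates are identical to GENCODE M21 on GRCm38, so GRCm38 is given. Which tool counted the reads, and whether by strand, is not given in the sources used here.

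Counts were fitted with edgeR 4.0.16 (R 4.3.3): TMM scaling, a filter with minimum count 10 and total 15, quasi-likelihood test, two-sided, all 6 libraries. No block was fitted in the main model, since the labels state no pairing. Deviations of same-numbered libraries correlated at 0.113, 0.069 and -0.027. Log2 ratios of members within a library, with 0.01 FPKM added, were compared by exact permutation with scipy 1.17.1. Alternatives were other scalings and filters, DESeq2 1.42.0, limma 3.58.1 on log2(FPKM + 1) and log2(FPKM + 0.1), a replicate block, and leaving out each library. The edgeR fit was tested on simulated counts.

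The members and lists were chosen with earlier results of these data known. Named genes are the members, up to 3 called genes per list with the largest difference (at 1 FPKM or more in the higher group), detected microRNA hosts, 3 nearest profiles per member, copies and overlapping genes, and the top marker per group; a gene that this rule would name is not reported here. 14 of 17 microRNA rows had no count.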

Additional observations from a re-analysis of the deposited data

How the results depend on the processing

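The calls of Lin28a, Lin28b, Igf2bp1 and Hmga2 held under all 15 other settings (scaling, filter, tool, block and libraries left out), with log2 differences of -7.35 to -5.35, -5.40 to -2.31, -2.65 to -2.09 and 2.18 to 3.40. Igf2bp2 (0.43 to 0.81) and Hmga1 (-0.83 to -0.16, adjusted p 0.0229 to 0.2305, edgeR, DESeq2 or limma) were called under none of these. Igf2bp3 ranged from 0.68 to 1.01 when each library was left out and was called only without SSCs replicate 3; the cause was not tested. With the replicate block, log2 differences were -7.05 for Lin28a, -5.03 for Lin28b, -2.33 for Igf2bp1, 0.72 for Igf2bp2, 0.84 for Igf2bp3, -0.50 for Hmga1 and 3.16 for Hmga2, and no member's call changed. Over all genes 4510 rose and 4661 fell with the block, against 4470 and 4797. With limma on log2(FPKM + 1), 2746 genes rose; the added constant compresses low levels. Library totals moved the median log2 difference by -0.25 and the share of calls higher in iNSCs from 48.2% to 39.6%. The log2 ratios kept their direction when each library was left out, at p = 0.2, the smallest that 2 against 3 allows (exact, two-sided). Of 210 list counts under alternatives, 13 moved by over 1.5 times. Levels of Lin28a and Lin28b in iNSCs are limited by depth, at 13 to 33 counts a library.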

Other observations

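Let-7 seed matches also gather in genes outside the LIN28, IGF2BP and HMGA families. The 4 tested genes with at least 6 matches in the 3′ UTR, singled out after their values were seen, were Nr6a1 (8 matches, log2 -2.47), Mcf2l (7 matches, -1.81), Nudt12 (7 matches, 1.71) and Trim6 (6 matches, -4.32). Of these Nr6a1, an orphan nuclear receptor of germ cells and a let-7 target, Mcf2l and Trim6 fell in iNSCs and Nudt12 rose (edgeR).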
